A study of Rattus norvegicus with 8 samples.

Results

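Germ cells control their messenger RNAs with a small set of RNA-binding proteins, and 7 genes of such proteins were followed here: Lin28a, Lin28b, Dazl, Nanos2, Nanos3, Dnd1 and Pum2. They were found by symbol among the 16764 gene symbols of the table, and 6 of the 7 had a row. Lin28b was not analysed here. The RNA came from Brown Norway rats and fell into 3 groups of 2 libraries each. Undifferentiated spermatogonia (USg) were a cultured spermatogonial line kept in SG medium, with 0 h in SD medium. Differentiating spermatogonia (DSg) were the same line after 120 h in SD medium, which holds all-trans-retinoic acid and neuregulin-1, and were taken 7 days after plating on laminin. The spermatocyte-enriched group (Spc) was primary testis germ cells that stayed unbound when passed over plastic, then collagen-I, then laminin, and were kept for 2.5 days in medium with 10% serum. USg were taken before plating on laminin per the protocol, although the titles of their samples carry the same time mark as those of DSg. In DSg against USg the effects of medium, of laminin and of days in culture cannot be told apart, nor can those of stage, source and culture in Spc against the line. The labels call the cultures of the line replicates and do not say whether the Spc libraries came from separate animals, so p-values measure the spread between these samples only.

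As background, spermatogenesis starts from undifferentiated spermatogonia, which either renew or, under retinoic acid, become differentiating spermatogonia and then enter meiosis as spermatocytes. LIN28 proteins bind the precursors of let-7 microRNAs and block their maturation, and their RNA marks undifferentiated spermatogonia in mice. NANOS2 and NANOS3 are zinc finger proteins that bring RNAs to the CCR4-NOT deadenylase, which shortens poly(A) tails, and in mice NANOS2 keeps spermatogonial stem cells undifferentiated. DND1 works with NANOS2 on such RNAs, DAZL promotes the translation of germ cell RNAs before and during meiosis, and PUM2 is a Pumilio-family repressor that binds the 3′ ends of many RNAs in many cell types.

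The promoters of the members differed in a feature that had no part in choosing them. CpG sites, the dinucleotides at which mammalian DNA is methylated, were counted in the 250 bases before the annotated start of each gene in the RefSeq promoter table of build GRCr8, in which all 7 members matched. The count was 29 for Pum2 and 23 for Dazl, the 2 members that passed the threshold, an edgeR adjusted p below 0.05, in none of the 3 comparisons when all libraries were fitted. It was 13 for Dnd1, 5 for Lin28a, 2 for Lin28b, 1 for Nanos2 and 0 for Nanos3, against a median of 5 over 33469 promoters. Whether CpG counts bear on the RNA levels of the members was not tested. Of all promoters 6.04% had at least as many CpG sites as Pum2 and 12.3% at least as many as Dazl. Both ends of this range are shown for comparison, 5′ to 3′ with CpG sites in capitals, for Pum2 (chr6:37182326-37182575, plus strand), Dazl (chr9:18193113-18193362, plus strand), Nanos2 (chr1:87763466-87763715, plus strand) and Nanos3 (chr19:40890022-40890271, plus strand), in GRCr8.
Pum2: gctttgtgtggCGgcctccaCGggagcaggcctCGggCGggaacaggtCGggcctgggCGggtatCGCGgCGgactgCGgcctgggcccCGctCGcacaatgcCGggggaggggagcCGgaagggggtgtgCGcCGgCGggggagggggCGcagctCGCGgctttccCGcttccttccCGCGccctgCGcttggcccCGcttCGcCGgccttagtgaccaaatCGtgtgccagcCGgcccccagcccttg
Dazl: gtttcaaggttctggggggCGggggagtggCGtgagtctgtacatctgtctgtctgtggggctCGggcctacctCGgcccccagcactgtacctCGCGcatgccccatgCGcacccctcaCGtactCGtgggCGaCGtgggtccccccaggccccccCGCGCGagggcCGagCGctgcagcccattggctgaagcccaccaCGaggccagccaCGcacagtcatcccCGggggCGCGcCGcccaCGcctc
Nanos2: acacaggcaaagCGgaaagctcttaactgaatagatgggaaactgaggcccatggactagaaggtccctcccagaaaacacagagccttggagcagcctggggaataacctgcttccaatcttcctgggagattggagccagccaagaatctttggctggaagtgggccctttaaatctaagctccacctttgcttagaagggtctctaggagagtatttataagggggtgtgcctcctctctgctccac
Nanos3: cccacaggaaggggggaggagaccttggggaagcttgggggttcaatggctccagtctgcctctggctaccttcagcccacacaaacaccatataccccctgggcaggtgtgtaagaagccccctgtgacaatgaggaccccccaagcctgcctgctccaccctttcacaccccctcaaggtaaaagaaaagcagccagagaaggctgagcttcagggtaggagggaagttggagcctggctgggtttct
On either strand of these windows, the GC box GGGCGG had 2 matches in Pum2, 2 in Dazl, 1 in Dnd1 and 0 in the other members, and 30.5% of all promoters held at least 1. CCAAT, which 34.0% of all promoters held, had 2 matches in Nanos2, 1 in Dazl and 1 in Dnd1. TATAAA (12.9% of all promoters) had 1 match in Nanos2 and 0 in the other members. The retinoic acid receptor core AGGTCA (14.1% of all promoters), the forkhead core TGTTTAC (3.21%), the E box CACGTG (5.59%) and the cAMP response element TGACGTCA (1.59%) were in none of the 7 windows, which says only that these letters are not there.

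The known target of LIN28A is the let-7 precursor, and the rat hairpin of let-7a (Mirlet7a1, chr17:16320133-16320226, plus strand, GRCr8, from RefSeq) shows what it reads. The capitals mark GGAG, the letters near the end of the loop that the zinc knuckles of LIN28 bind.
Mirlet7a1 hairpin: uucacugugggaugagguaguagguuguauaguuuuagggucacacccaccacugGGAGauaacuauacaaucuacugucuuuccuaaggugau
The mature strand cut from it carries the let-7 seed, bases 2 to 8, in capitals.
let-7a-5p: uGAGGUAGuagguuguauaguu
Of 11 rat let-7 hairpins from RefSeq, 10 held a mature strand with that seed, and 9 of these had GGAG after it. GGAG anywhere in the hairpin was present in 41.1% of all 419 rat hairpins. Mature microRNAs were not measured by these libraries: the 9 let-7 gene rows of the table had at most 17 counts in any library.

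Total counts ran from 2657291 to 5697165 per library, and levels are given as CPM, counts scaled to library size with the TMM factors of edgeR. Markers were set against the labels: 7 undifferentiated markers such as Gfra1 and Ret summed to 1677 to 1979 CPM in USg, 308 to 317 in DSg and 189 to 205 in Spc. Of these 7, 6 were called lower in Spc against USg, and Id4 was called higher, at 129 CPM on average in Spc and 48.2 in USg (adjusted p = 0.0111). The 4 differentiating markers summed to 350 to 426 CPM in USg, 886 to 942 in DSg and 174 to 204 in Spc. Kit alone was called higher in DSg against USg. Dnmt3b averaged 195 CPM in DSg and 109 in USg, but Sohlh1 66.8 and 95.1 and Ccnd2 73 and 109. The 9 spermatocyte markers summed to 525 to 1016 CPM in USg, 681 to 1244 in DSg and 7042 to 7881 in Spc. Of these 9, 8 were called higher in Spc against USg, and Ccna1 was not, at 6.27 and 6.07 CPM on average. The replicates of USg and DSg differed more from each other (SD of their log2 difference over genes 0.950 and 0.947) than those of Spc (0.434). All 6 members passed the expression filter, as 12210 of the 16764 rows did. Lin28a, Nanos2 and Nanos3 had at most 11 counts in each Spc library, so they passed through the other groups, and the counts of members called below describe the members and support nothing further. Levels are not compared between genes, since no transcript lengths were used. In these bulk samples, fewer cells of a type and less RNA per cell cannot be told apart.

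Lin28a was present in both spermatogonial groups, which did not differ past the threshold, and was nearly absent in Spc. It had 75 and 143 counts in USg 1 and USg 2, 54 and 85 in DSg 1 and DSg 2, and 5 and 5 in Spc 1 and Spc 2. As levels these were 28.9 and 25.5 CPM in USg, 21.8 and 22.9 in DSg, and 0.985 and 1.09 in Spc. The Spc libraries lay far below all 4 libraries of the line, and the replicates of a group differed by at most 1.14-fold. Lin28a averaged 1.04 ± 0.0730 CPM in Spc and 27.2 ± 2.46 CPM in USg (SD, n = 2 each), a log2 fold change of -4.67 ± 0.46 (SE, edgeR adjusted p = 2.72e-04). Against DSg, at 22.4 ± 0.757 CPM, the log2 fold change was -4.39 ± 0.46 (adjusted p = 4.59e-04). Both calls held under all 16 alternatives tried, with log2 fold changes of -4.75 to -4.48 against USg and -4.58 to -4.24 against DSg. Between DSg and USg the log2 fold change was -0.28 ± 0.36 (edgeR adjusted p = 0.715), with a 95% interval of -1.10 to 0.54. Both DSg libraries lay below both USg libraries, so a modest fall is not excluded. The table also counts olfactory receptor genes, which are taken here as a measure of stray counts. Whether any of them is expressed in these cells was not tested, and the highest had 71 counts in Spc 1 and 86 in Spc 2. Of 1045 such genes 17 had at least 5 counts in Spc 1 and 33 in Spc 2, so few of them reached the Spc count of Lin28a. A RefSeq pseudogene is named after Lin28a, and how reads common to both were counted is not given in the sources used here.

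**Figure D1:**
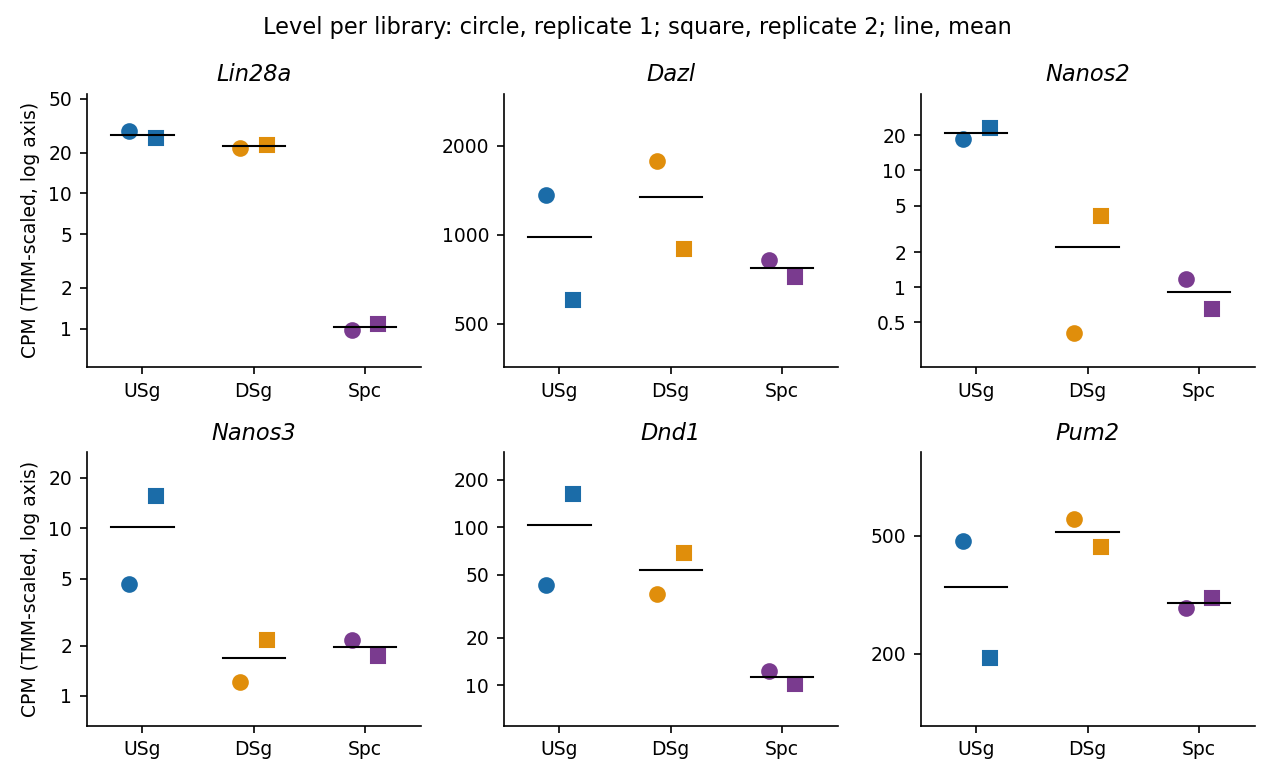
Level of each member in every library, as TMM-scaled CPM on a log axis, for USg, DSg and Spc (circle, replicate 1; square, replicate 2; line, mean of both). Lin28a is slightly lower in DSg than in USg and close to 1 CPM in Spc. Nanos2 and Nanos3 are low in both DSg and Spc, and the USg libraries of Dazl, Pum2, Nanos3 and Dnd1 lie far apart.

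Nanos2, a marker of stem spermatogonia in mice, was low in Spc and also had few counts in DSg. Its counts were 48 and 131 in USg, 1 and 15 in DSg, and 6 and 3 in Spc, or 18.5 and 23.3, 0.404 and 4.04, and 1.18 and 0.653 CPM. All 4 DSg and Spc libraries lay below both USg libraries, and the DSg libraries differed 10.0-fold from each other. Nanos2 averaged 0.918 ± 0.374 CPM in Spc against 20.9 ± 3.40 CPM in USg, and fell by 4.46 ± 0.83 on the log2 scale (edgeR adjusted p = 0.00387, past the threshold under all 16 alternatives, -5.65 to -4.10). In DSg it averaged 2.22 ± 2.57 CPM, with a log2 fold change against USg of -3.12 ± 0.77 and a 95% interval of -4.86 to -1.37. This missed the threshold after adjustment over all genes (adjusted p = 0.0739). It passed as lower in 6 of 16 alternatives, namely without the filter on low counts (4.51e-05), with DESeq2 (0.00591), with the replicate number as a block (0.0250) and without USg 1 (0.0162), Spc 1 (0.00150) or Spc 2 (0.00270), and the adjusted p ranged from 4.51e-05 to 0.152.

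The background of stray counts bears on the DSg values of Nanos2. In DSg 2 the 1045 olfactory receptor genes had a median of 4 counts and 96.7% had a count, against 23.3% in DSg 1. The 15 counts of Nanos2 in DSg 2 were reached by 7 of these genes, and its 1 count in DSg 1 by 244. Between Spc and DSg, Nanos2 was at -1.34 ± 0.90 on the log2 scale without passing (adjusted p = 0.295), and the sign turned without DSg 2. Counted against Lin28a in the same library, a ratio chosen after the values were seen, Nanos2 had 64 and 91.6 counts per 100 Lin28a counts in USg, 1.85 and 17.6 in DSg, and 120 and 60.0 in Spc. The DSg libraries were thus the ones in which Nanos2 was low relative to Lin28a, and the Spc ratios rest on 3 to 6 counts of each gene. Whether the 2 genes differed in their change was not tested.

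Nanos3, the close relative of Nanos2 that protects primordial germ cells in mice, had few counts outside USg. It had 12 and 88 counts in USg, 3 and 8 in DSg, and 11 and 8 in Spc, or 4.63 and 15.7, 1.21 and 2.15, and 2.17 and 1.74 CPM. Every DSg and Spc library was below both USg libraries, and the USg libraries themselves differed 3.38-fold. Against USg, at 10.1 ± 7.81 CPM, Nanos3 fell to 1.95 ± 0.301 CPM in Spc, a log2 fold change of -2.39 ± 0.77 that just passed (edgeR adjusted p = 0.0403). That call was lost in 7 of 15 alternatives, with an adjusted p of 0.535 and a log2 fold change of -1.21 without USg 2, 0.152 without Spc 1 and 0.222 without Spc 2, and of 0.0506 to 0.0631 with limma-voom, thinned counts, the replicate block and total-count scaling. In DSg it averaged 1.68 ± 0.666 CPM and had a log2 fold change against USg of -2.57 ± 0.81 (adjusted p = 0.144, but 0.0168 without USg 1 and 0.0111 without the filter). Between Spc and DSg the log2 fold change was 0.18 ± 0.86 (95% interval -1.76 to 2.12), and -0.04 with total-count scaling and -0.34 with thinned counts. In DSg 2, 183 olfactory receptor genes (17.5%) had at least the 8 counts of Nanos3.

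Dnd1, the partner of NANOS2, showed its lowest level in Spc and differed widely within the line. Its counts were 112 and 914 in USg, 94 and 255 in DSg, and 63 and 47 in Spc, or 43.2 and 163, 38.0 and 68.7, and 12.4 and 10.2 CPM. Both Spc libraries were below the other 4, whereas USg 1 lay within the range of DSg. Dnd1 averaged 11.3 ± 1.54 CPM in Spc and 103 ± 84.5 CPM in USg, and fell by 3.19 ± 0.63 on the log2 scale (edgeR adjusted p = 0.00495), a call kept under all 16 alternatives. The size of the fall rested on USg 2: the log2 fold change was -1.91 without it and -3.88 without USg 1. Against DSg, at 53.3 ± 21.7 CPM, Dnd1 fell by 2.24 ± 0.61 (adjusted p = 0.0268), and this call was lost without DSg 1 (0.0683) or DSg 2 (0.155). Between DSg and USg the log2 fold change was -0.95 ± 0.57 (adjusted p = 0.396). It was 0.24 without USg 2 and -1.76, past the threshold (0.0162), without USg 1.

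In RefSeq GRCr8 Dnd1 overlaps Wdr55 and lies close to the histidyl-tRNA synthetase gene Hars1, which carries Dnd1 as an older name, and 3 pseudogenes are named after Dnd1. Wdr55 had 16.6 and 19.6 CPM in Spc against 54.4 and 55.7 CPM in USg, a log2 fold change of -1.61 ± 0.34 (edgeR adjusted p = 0.00681, and 0.137 without Spc 1 or 0.0775 without Spc 2). The USg libraries of Wdr55 differed by 1.02-fold and those of Dnd1 by 3.77-fold. Hars, as the table names it, had 93.2 and 83.8 CPM in Spc against 96.5 and 160 in USg (-0.54 ± 0.34, adjusted p = 0.250). Whether reads were shared between Dnd1 and Wdr55 was not tested.

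Dazl, a germ cell gene through meiosis, was high in all 6 libraries. It had 3534 and 3381 counts in USg, 4396 and 3329 in DSg and 4165 and 3304 in Spc, or 1364 and 602, 1776 and 896, and 821 and 719 CPM. The USg libraries spanned the values of Spc, and the first library of the line lay 2.27-fold above the second in USg and 1.98-fold in DSg. Dazl averaged 770 ± 71.8 CPM in Spc and 983 ± 539 in USg, a log2 fold change of -0.35 ± 0.46 (edgeR adjusted p = 0.582) with a 95% interval of -1.40 to 0.69. Against DSg, at 1336 ± 622 CPM, the Spc libraries lay below both, with a log2 fold change of -0.79 ± 0.46 (adjusted p = 0.232). DSg against USg gave 0.44 ± 0.46 (adjusted p = 0.636), with values of -0.31 to 1.05 over the alternatives.

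Pum2, the Pumilio gene, was well counted in every library, with 1244 and 1083 counts in USg, 1408 and 1706 in DSg and 1447 and 1421 in Spc. These were 480 and 193, 569 and 459, and 285 and 309 CPM. The Spc values lay between those of USg 2 and USg 1, and below both DSg libraries. The log2 fold change was -0.18 ± 0.42 for Spc against USg (edgeR adjusted p = 0.766, 95% interval -1.12 to 0.77), 0.61 ± 0.42 for DSg against USg (adjusted p = 0.457) and -0.79 ± 0.42 for Spc against DSg (adjusted p = 0.192). Spc against DSg passed as lower (0.0228) in the fit of only the 4 libraries compared.

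Set side by side, 0 of 6 members passed the threshold between DSg and USg by edgeR, where 2.48% of the 12210 genes tested did (0.565% higher and 1.92% lower). Nanos2 and Nanos3 had unadjusted p below 0.05, DESeq2 called Nanos2 as lower, and limma-voom called 0. Between Spc and USg 4 of 6 were lower, Lin28a, Nanos2, Nanos3 and Dnd1, and 0 higher, where 16.6% of all genes were lower and 17.9% higher. Between Spc and DSg 2 of 6 were lower, Lin28a and Dnd1, and 0 higher, where 11.7% of genes were lower and 14.8% higher. The 3 comparisons share libraries in pairs and are not independent of each other. The median log2 fold change of the members was -0.62 in DSg against USg, -2.79 in Spc against USg and -1.07 in Spc against DSg, beside 0.01, -0.04 and -0.03 over all genes tested.

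**Figure D2:**
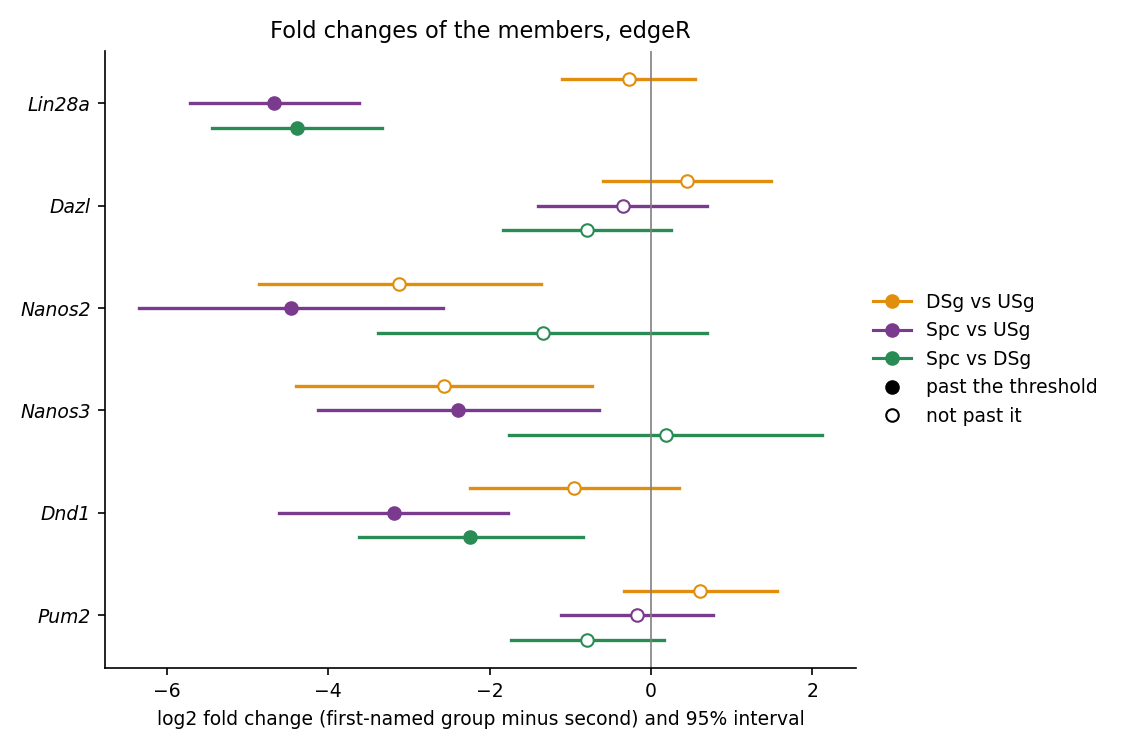
Log2 fold change of each member (point) with its 95% interval (line) in DSg vs USg, Spc vs USg and Spc vs DSg, filled where the edgeR adjusted p was below 0.05. Lin28a is near 0 in DSg vs USg (-0.28) and below -4 in both comparisons with Spc, whereas every interval of Dazl and Pum2 crosses 0.

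The order of the 3 groups differed between the members. Lin28a was highest in USg and DSg, which did not differ past the threshold, and lowest in Spc. Nanos2 and Nanos3 had their highest mean in USg, and neither DSg against USg nor Spc against DSg passed the threshold for them. Dnd1 ran from USg through DSg to Spc by its means, with USg and DSg overlapping. Dazl and Pum2 had their highest mean in DSg, and no neighbours in their order differed past the threshold.

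Markers of several testicular somatic cell types had higher sums in Spc than in the line, and their part in the values of the members was not tested. Of 6 Sertoli cell markers tested 4 were called higher in Spc against USg, and the 7 with a row summed to 411 to 468 CPM in USg, 202 to 248 in DSg and 1035 to 1306 in Spc. The 3 peritubular myoid markers summed to 35.9 to 49.0 CPM in USg, 40.4 to 46.0 in DSg and 369 to 399 in Spc. The 5 fibroblast markers with a row summed to 183 to 428 CPM in USg, 209 to 251 in DSg and 1949 to 2094 in Spc. Of 4 tested, Col3a1 and Dcn were called higher in Spc against USg. Col1a1 was not, at 157 CPM on average in Spc and 214 in USg, nor was Pdgfrb, at 80.6 and 41. Lum averaged 0.938 CPM in Spc and did not pass the filter. Of the 5 Leydig cell markers, Star alone was high in Spc (159 and 169 CPM, against 0.772 and 1.07 in USg). Cyp11a1 averaged 0.938 CPM in Spc and 5.99 in DSg and was called lower there (adjusted p = 0.0356), and Cyp17a1, Hsd3b1 and Insl3 were at most 3.05 CPM in Spc. Leukocyte markers summed to 8.01 to 13.5 CPM in USg, 7.27 to 27.2 in DSg and 51.8 to 64.4 in Spc, and 3 of the 4 were called higher in Spc against USg. Of 3 endothelial markers, Pecam1 and Kdr were called lower in Spc against USg and Cdh5 higher (log2 fold change 3.16 ± 1.07, adjusted p = 0.0483). None of the markers in these lists was at 0 in both Spc libraries. Relative to Dazl in the same library, a scale chosen after the values were seen, Lin28a had 21.2 and 42.3 counts per 1000 Dazl counts in USg, 12.3 and 25.5 in DSg and 1.20 and 1.51 in Spc. Nanos2 had 13.6 and 38.7 in USg, 0.227 and 4.51 in DSg and 1.44 and 0.908 in Spc on that scale. Nanos3 had 3.4 and 26 in USg, 0.682 and 2.4 in DSg and 2.64 and 2.42 in Spc. Dnd1 had 31.7 and 270 in USg, 21.4 and 76.6 in DSg and 15.1 and 14.2 in Spc. For each of these genes Spc lay below USg without overlap on this scale, and the share of all genes that did so was not counted. Dazl itself differed 2.27-fold between the USg libraries. Nanos3 in Spc lay above both DSg libraries, but its 2.42 in Spc 2 and 2.4 in DSg 2 rest on 8 counts each. Pum2 had 352 and 320 counts per 1000 Dazl counts in USg, 320 and 512 in DSg and 347 and 430 in Spc, and overlapped throughout. Ddx4, the germ cell helicase Vasa, had 286 and 419 in USg, 187 and 227 in DSg and 548 and 632 in Spc.

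The replicates of the line pulled the members in different directions. USg 2 had 3.77 times the Dnd1 level and 3.38 times the Nanos3 level of USg 1, but 0.441 times its Dazl and 0.402 times its Pum2 level, while Lin28a (0.880 times) and Nanos2 (1.26 times) differed less. In DSg the second library again had more Dnd1 (log2 difference 0.85), more Nanos3 (0.83) and less Dazl (-0.99) than the first. The largest log2 difference between the Spc libraries was -0.86, for Nanos2 at 3 to 6 counts. The share of counts in ribosomal RNA genes was 12.4% in DSg 1 and 7.80% in USg 1, against at most 0.733% in the other 4 libraries. Their part in these differences was not tested, and the fit without the 2 ribosomal RNA genes changed no call of a member.

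Across all genes tested, the profile of each member over the 6 libraries was matched by its distance in log2 CPM, each centred on its mean. Lin28a was closest to Nell1, a secreted growth factor-like protein gene (distance 0.406), Pdzd4 (0.576) and the small GTPase gene Rab6b (0.699). Nell1 had 109 and 270 counts in USg, 79 and 124 in DSg and 9 and 7 in Spc, and its low Spc counts follow from its choice by distance. Nanos2 was closest to the potassium channel gene Kcnc2 (0.700), the gamma-tubulin gene Tubg2 (0.917) and Asb13 (1.06), and Kcnc2 had 130 and 239, 2 and 24, and 12 and 8 counts. Nanos3 was closest to Nab2, a corepressor of EGR factors (0.423), Phldb1 (0.483) and the histone variant gene H2afv (0.524). Dnd1 was closest to Btbd17 (0.248), the sulfotransferase gene Chst8 (0.454) and Celf3 (0.657), which codes for another RNA-binding protein. Dazl was closest to Mterfd1 (0.215), Exoc6 (0.229) and Psmd14 (0.230), and Pum2 to Kpna3 (0.172), Tnks (0.200) and Ergic2 (0.236). Among the members, Dazl and Pum2 were closest to each other (0.604, with Pum2 at rank 136 of 12209 genes from Dazl), then Nanos3 and Dnd1 (2.35) and Lin28a and Dnd1 (2.43). These distances are descriptions, and all genes share the depth of the same 6 libraries.

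Genes that work with the members were followed in lists. Of the LIN28 and let-7 machinery 13 of 16 listed genes were tested. Between DSg and USg 1 rose, the Argonaute gene Ago3 (1.72 ± 0.33 on the log2 scale, edgeR adjusted p = 0.0383), and 0 fell (median -0.04). That is 7.69% called beside 2.48% of all genes. The Ago3 call was lost in 6 of 16 alternatives, with an adjusted p of 0.0935 without USg 2, 0.0758 without Spc 1 and 0.0692 without Spc 2. Between Spc and USg 4 rose and 4 fell (median 0.28), which is 61.5% called beside 34.5% of all genes. Among them was Trim71, itself a let-7 target and a stem cell RNA-binding ubiquitin ligase, at 16.4 and 9.80 CPM in Spc against 125 and 172 in USg (-3.50 ± 0.40, adjusted p = 4.21e-04). The Argonaute genes Ago2 (2.00 ± 0.53), Ago3 (2.03 ± 0.33) and Ago4 (2.95 ± 0.67) rose, and these 4 calls held under all 16 alternatives. Between Spc and DSg 1 rose and 3 fell, which is 30.8% called beside 26.5% of all genes. Ago2 rose (3.10 ± 0.57) and Trim71 fell (-2.99 ± 0.39), both under all 16 alternatives. Drosha, the nuclease gene of the first cut (-1.23 ± 0.28), and Ago1 (-1.13 ± 0.30) also fell, and each lost its call in 5 of 16 alternatives, also when either Spc library was left out.

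Of 24 listed let-7 target genes, known as such mainly from human and mouse, 21 were tested. Between Spc and USg 11 fell and 2 rose (median log2 fold change -1.12), beside 16.6% of all genes lower and 17.9% higher. Between Spc and DSg 9 fell and 2 rose (median -0.40), beside 11.7% lower and 14.8% higher. The chromatin protein gene Hmga2 had 0.591 and 0.653 CPM in Spc against 45.5 and 7.48 in USg (-5.32 ± 1.13, adjusted p = 0.00710, and 0.0870 with limma-voom). The mRNA-binding protein gene Igf2bp2 had 7.10 and 11.1 CPM in Spc against 173 and 118 in USg (-4.00 ± 0.45, adjusted p = 4.00e-04), and the AT-rich DNA-binding protein gene Arid3a fell by 2.92 ± 0.49. Myc rose, with 48.7 and 36.4 CPM in Spc and 2.70 and 4.10 in USg (3.59 ± 0.47, edgeR adjusted p = 8.25e-04). Between DSg and USg 3 fell and 1 rose (median -0.23), beside 1.92% of all genes lower and 0.565% higher. Whether LIN28A or let-7 had a part in the values of these genes was not tested. The insulin receptor substrate gene Irs2 fell by 2.85 ± 0.36, Mycn by 2.67 ± 0.49 and Arid3b by 1.57 ± 0.28, and the TGF-beta receptor gene Tgfbr1 rose by 2.04 ± 0.40. Without DSg 1 or DSg 2, 0 of all genes passed in DSg against USg, so no call could be kept in those fits. The log2 fold changes there were -3.28 and -2.62 for Irs2, -2.85 and -2.69 for Mycn, -1.77 and -1.55 for Arid3b and 2.29 and 1.40 for Tgfbr1. With total-count scaling Tgfbr1 (edgeR adjusted p = 0.0543) and Mycn (0.0589) missed the threshold. In the fit of the 4 libraries compared Tgfbr1 (0.0992) and Arid3b (0.109) missed it. Tgfbr1 also missed it without USg 2 (log2 fold change 1.90) and Arid3b without Spc 2 (-1.62).

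The deadenylation machinery on which NANOS2 and DND1 act formed another list. Of 27 listed genes of the CCR4-NOT complex, its adaptors and the decay enzymes, 26 were tested. Between DSg and USg edgeR called 0, beside 2.48% of all genes. Of the 26, 2 had an unadjusted edgeR p below 0.05, and DESeq2 called 1 and limma-voom 0. Between Spc and DSg edgeR called 0, beside 26.5% of all genes. Of the 26, 7 had an unadjusted edgeR p below 0.05, and DESeq2 called 4 and limma-voom 2. Between Spc and USg 3 rose and 1 fell, which is 15.4% called beside 34.5% of all genes, with the antiproliferative adaptor gene Btg2 at 256 and 246 CPM in Spc against 26.6 and 65.7 in USg (2.43 ± 0.43, adjusted p = 0.00311). Tob1, another such adaptor gene (1.27 ± 0.41), and the scaffold gene Cnot1 (0.92 ± 0.30) also rose and the subunit gene Rqcd1 fell (-1.10 ± 0.35), and these 3 calls were lost when either Spc library was left out. Cnot1 lost its call in 9 of 16 alternatives, Rqcd1 in 4 and Tob1 in 3, among them the fits without USg 2 (0.101, 0.0575 and 0.142). The medians were 0.08, 0.23 and -0.29 in DSg against USg, Spc against USg and Spc against DSg.

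Other RNA-binding proteins of germ cells had more calls upward than downward in Spc. Of 43 listed genes 32 were tested. Between Spc and USg 11 rose and 1 fell (median 0.65), beside 17.9% of all genes higher and 16.6% lower. Against DSg, 12 rose and 1 fell in Spc (median 0.87), beside 14.8% higher and 11.7% lower. The Y-box protein gene Ybx2, whose product stores RNAs in meiotic and later germ cells of mice, had 1554 and 1684 CPM in Spc against 38.2 and 94.5 in USg (4.60 ± 0.47, adjusted p = 2.86e-04). Ptbp2, a splicing repressor, rose by 2.70 ± 0.42, Cpeb4, a cytoplasmic polyadenylation factor, by 2.53 ± 0.37 and Ybx3 by 2.50 ± 0.44. Msi1, the Musashi gene, was the 1 that fell and is named for that after its values were seen, with 16.4 and 15.5 CPM in Spc against 40.9 and 43.3 in USg (-1.40 ± 0.39, adjusted p = 0.0231). Between DSg and USg 1 fell and 1 rose, which is 6.25% called beside 2.48% of all genes. Rbpms fell by 2.60 ± 0.38 (edgeR adjusted p = 0.0140) and Cpeb4 rose by 1.75 ± 0.36 (adjusted p = 0.0445). In the fits without DSg 1 or DSg 2, in which no gene passed, the log2 fold changes were -3.29 and -2.21 for Rbpms and 1.53 and 1.80 for Cpeb4. Cpeb4 also missed the threshold in the fit of the 4 libraries compared (edgeR adjusted p = 0.125). It missed it too without USg 2, Spc 1 or Spc 2, with log2 fold changes of 1.36, 1.67 and 1.70.

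**Figure D3:**
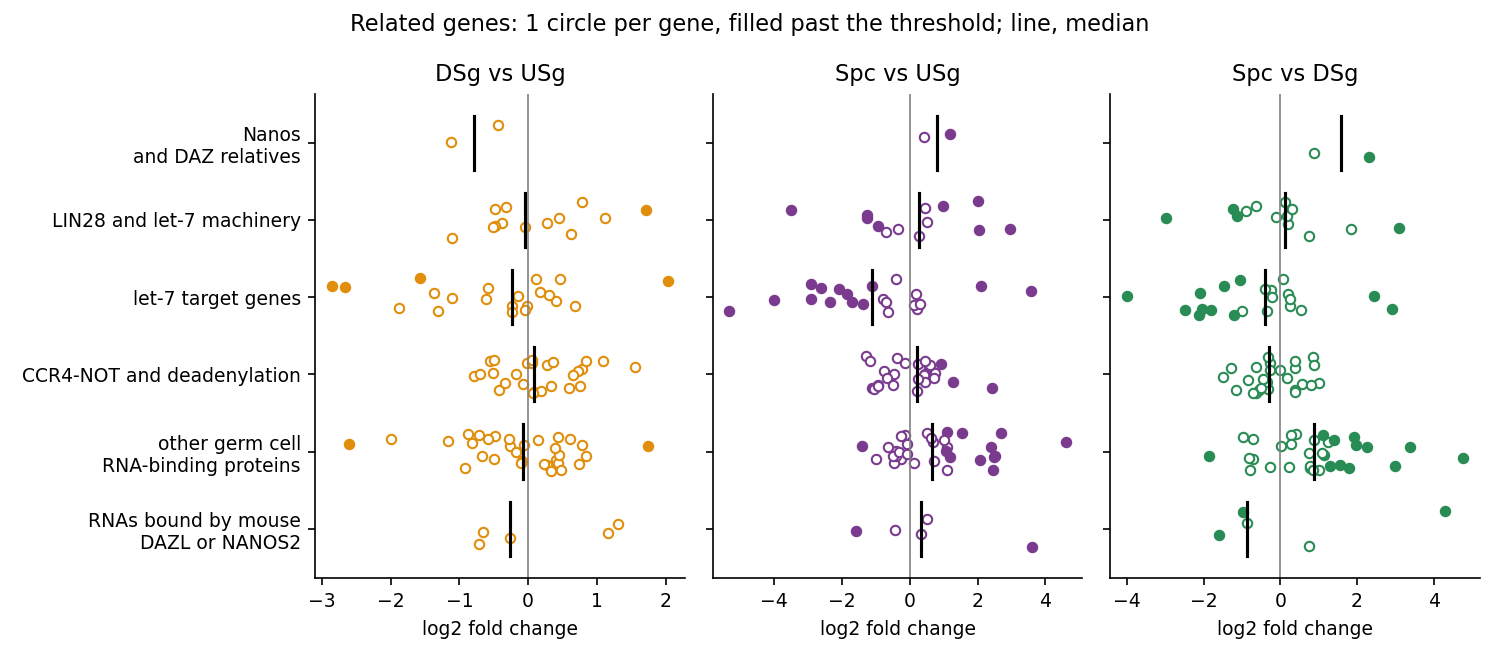
Log2 fold changes of the genes in 6 lists related to the members, for DSg vs USg, Spc vs USg and Spc vs DSg (1 circle per gene, filled where the edgeR adjusted p was below 0.05; line, list median). In Spc vs USg the let-7 target genes have a median of -1.12 and the other germ cell RNA-binding proteins one of 0.65, and the deadenylation genes one of 0.23.

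Of 5 listed relatives of the NANOS and DAZ proteins and their partners 2 were tested, and 1 of these rose in each comparison with Spc. Of all genes 17.9% rose in Spc against USg and 14.8% against DSg. Dazap1, which codes for a DAZ-associated protein, had 89.1 and 180 CPM in USg, 64.6 and 59.8 in DSg and 352 and 266 in Spc. It rose in Spc against DSg by 2.31 ± 0.39 (adjusted p = 0.00380) and against USg by 1.20 ± 0.38 (adjusted p = 0.0378). The call against USg was lost in 6 of 16 alternatives, with an adjusted p of 0.323 without Spc 1 and 0.180 without USg 1. Dazap2, which codes for another such protein, had 240 and 323 CPM in USg, 245 and 171 in DSg and 378 and 383 in Spc. Its log2 fold change was 0.87 ± 0.31 in Spc against DSg (adjusted p = 0.0707), which passed as higher in 4 of 16 alternatives.

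Of RNAs that DAZL or NANOS2 bind in mouse germ cells, 5 were tested. Between DSg and USg edgeR called 0, beside 2.48% of all genes. Of the 5, 2 had an unadjusted edgeR p below 0.05, and DESeq2 called 1 and limma-voom 0. Between Spc and USg 1 rose and 1 fell, beside 17.9% of all genes higher and 16.6% lower. Between Spc and DSg 1 rose and 2 fell, beside 14.8% higher and 11.7% lower. Sycp3, a synaptonemal complex gene, had 242 and 299 CPM in USg, 206 and 137 in DSg and 3154 and 3509 in Spc, and rose in Spc by 4.28 ± 0.38 against DSg and by 3.62 ± 0.36 against USg under all 16 alternatives. Tex19.1 fell in Spc against USg (-1.58 ± 0.34, adjusted p = 0.00719, and 0.128 without Spc 1 or 0.0534 without Spc 2), and rodents carry a close paralog of it, with which reads may be shared. Sohlh2, a transcription factor gene of differentiating spermatogonia that NANOS2 represses in mice, had 235 and 263 CPM in DSg against 84.9 and 116 in USg, which did not pass (log2 fold change 1.31 ± 0.30, adjusted p = 0.0626, but 0.00826 with DESeq2 and 0.0347 with the replicate block). In Spc it was lower than in DSg (-0.98 ± 0.30, adjusted p = 0.0406), a call lost in 5 of 16 alternatives. Taf7l had 1593 and 851 CPM in DSg against 726 and 366 in USg (1.16 ± 0.43, adjusted p = 0.195), and fell in Spc against DSg (-1.60 ± 0.43, adjusted p = 0.0256, and 0.180 without DSg 1, 0.134 without Spc 1 and 0.0690 without Spc 2). Ddx4 had 389 and 252 CPM in USg, 332 and 203 in DSg and 450 and 455 in Spc, and passed in none of the 3 comparisons under any of the 16 alternatives.

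**Figure D4:**
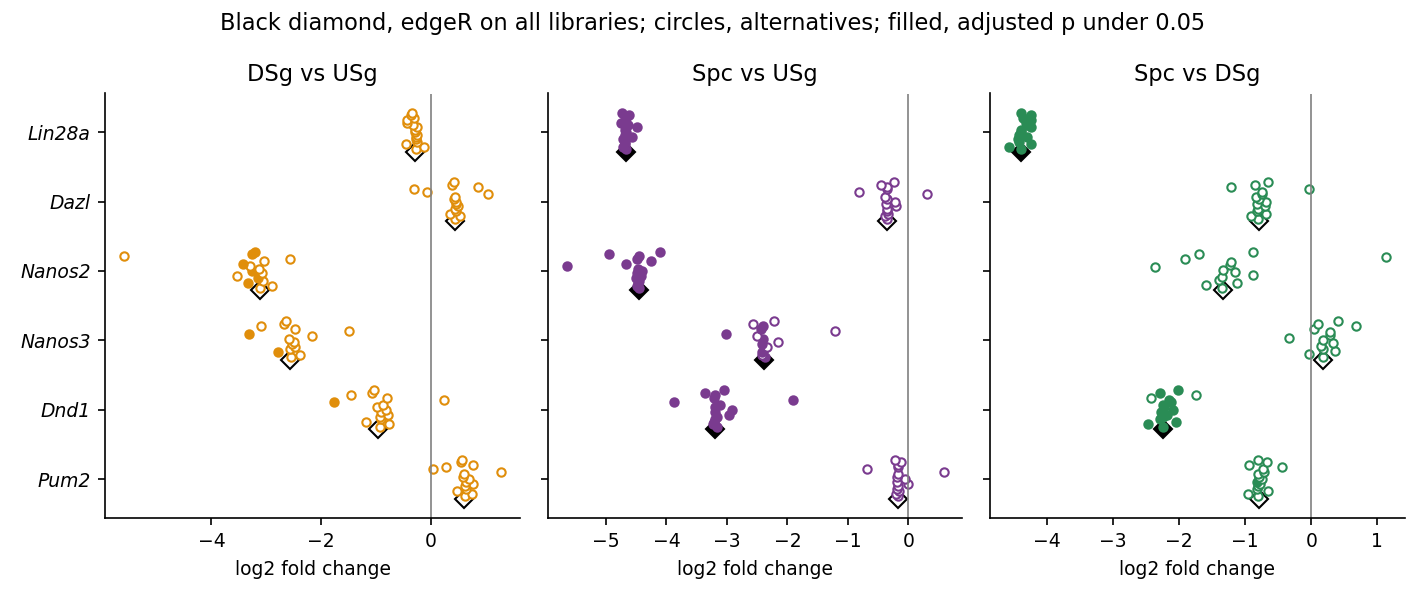
Log2 fold change of each member under the edgeR fit of all libraries (black diamond) and under each alternative in which it could be fitted (circle), filled where the adjusted p was below 0.05, for DSg vs USg, Spc vs USg and Spc vs DSg. Lin28a stays between -4.75 and -4.48 in Spc vs USg, and Nanos2 in DSg vs USg ranges from -5.59 to -2.56 with calls in 6 of 16 alternatives.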

How the data were processed

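RNA-seq was analysed in 6 libraries, and 2 Foxa2 ChIP samples were not analysed here. The authors deposited whole-number counts per gene symbol without normalization. Per the submitters' processing notes the tools named include STAR 2.5.3a and featureCounts of Subread 1.4.6, and the builds rn6 and rn5. The sources used here do not say which of them made the counts, nor the strand setting and gene annotation. Antisense and overlapping genes therefore cannot be told apart.

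Genes with low counts were removed with filterByExpr (minimum count 10, minimum total 15), counts were scaled by TMM, and all 3 groups were fitted together in edgeR 4.0.16 (quasi-likelihood F-test, R 4.3.3) (3 residual degrees of freedom). P-values were adjusted by Benjamini-Hochberg over 12210 genes, with a threshold of 0.05, and intervals are 95%. SE is the log2 fold change divided by the root of F. The fits were tested on simulated data for DSg against USg, Spc against USg and Spc against DSg. Of 2-fold changes 4.48%, 1.49% and 1.49% were recovered, and of 4-fold changes 71.6%, 71.6% and 58.2%. Of 8-fold changes 75.8%, 89.4% and 92.4% were recovered. False calls were 9 of 110, 9 of 117 and 11 of 112. A change near 2-fold can therefore go uncalled. Each share of false calls was above the threshold of 0.05, so a call that just passes can be false. Far fewer genes were changed in the simulation than the 4214 called in Spc against USg, so its rates may not hold there. Alternatives included DESeq2 1.42.0, limma-voom (limma 3.58.1), other scalings and filters, thinned counts and leaving out each library. Named genes were all members, up to 4 called genes of each list and comparison with at least 5 CPM in the higher group, all genes of 2 short lists (relatives, and RNAs bound by mouse DAZL or NANOS2), and the 3 nearest profiles of each member. A further listed gene is not reported here. The members and lists were chosen with earlier results of these data known. Of the symbols 14450 are current in RefSeq GRCr8 and 1938 are older names. RefSeq supplied the promoter and hairpin sequences.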

Additional observations from a re-analysis of the deposited data

How the results depend on the processing

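Of 283 member values under 16 alternatives 255 kept direction and side of the threshold, 9 lost the call, 10 gained one and 9 changed sign. Of 992 values of related genes 902 kept both, 75 lost the call, 10 gained one and 5 changed sign. Members called lower in DSg against USg, 0 by edgeR, numbered 2 with no filter, 1 with DESeq2 and 1 with the replicate block. Genes called higher there (69) numbered 189 with no filter, 239 with DESeq2, 10 in the fit of 4 libraries and 168 with the replicate block. Genes called lower there (234) numbered 855, 542, 80 and 436 under the same settings and 141 with total-count scaling. In Spc against DSg 2152 genes were lower in the fit of 4 libraries, against 1433. Leaving out 1 library gave 0 to 3 members lower, 0 to 317 genes higher and 0 to 1184 lower in DSg against USg, with 0 of both without DSg 1 or DSg 2. It gave 3 to 4 members lower, 1306 to 2288 genes higher and 922 to 2274 lower in Spc against USg. In Spc against DSg it gave 1 to 2, 1168 to 2547 and 466 to 1742. No member was called higher in any fit. In DSg against USg the sign turned for Dazl without USg 2 (-0.06) and DSg 1 (-0.31), Dnd1 without USg 2 (0.24), Ddx4 without DSg 2 (0.05), and Hars with no filter (-0.07), without USg 1 (-0.35) and DSg 1 (-0.30). In Spc against USg it turned without USg 1 for Dazl (0.31), Pum2 (0.58) and Taf7l (0.09), and for Pum2 with limma-voom (0.00). In Spc against DSg it turned for Nanos2 without DSg 2 (1.13) and for Nanos3 with total-count scaling (-0.04) and thinned counts (-0.34). Total-count scaling moved the median of all genes to 0.16 in DSg against USg and -0.22 in Spc against DSg, where 45.6% of calls were higher, against 55.8%. Over the fits without 1 library, values in DSg against USg spanned -0.31 to 1.05 (Dazl), -1.76 to 0.24 (Dnd1), -0.84 to 0.05 (Ddx4) and -0.35 to 0.45 (Hars), and in Spc against USg -0.81 to 0.31 (Dazl), -0.68 to 0.58 (Pum2) and -0.84 to 0.09 (Taf7l). Nanos2 in Spc against DSg spanned -1.91 to 1.13. The cause of these changes was not tested. A single remaining library is assumed to vary like the other groups. Deviations of same-numbered libraries correlated at 0.25 (DSg and USg), -0.265 (Spc and USg) and 0.0105 (Spc and DSg). These values do not settle whether the numbers pair the samples. With the Spc numbers crossed in the block, a fit added after the data were seen, 4 members and 2571 genes were lower and 2842 higher in Spc against USg. Lin28a in Spc (5 counts in each library) and Nanos2 and Nanos3 in DSg and Spc (at most 15) rest on few counts, which limits their precision.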
